A study of Mus musculus with 29 samples.

Results

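The Cip/Kip family of cyclin-dependent kinase inhibitors has 3 genes in the mouse, Cdkn1a (encoding p21Cip1), Cdkn1b (p27Kip1) and Cdkn1c (p57Kip2). All 3 were taken by name from the 51912 gene IDs of the deposited count table. The rule itself uses no measured value, but the family and the gene lists below were chosen with earlier results of these data known. RNA was sequenced from whole mouse ovaries that had been taken apart with papain, so each library holds the mixed cells of the organ. The samples were wild type (Cdkn1b +/+) or homozygous for a null allele of Cdkn1b (Cdkn1b -/-, called Cdkn1b-null here) and were collected as embryos (E13.5 and E18.5, in days of gestation), as pups on postnatal day 8 (PND8) or as adults aged 12 weeks (12wk). There were 4 wild-type samples at each age, 4 Cdkn1b-null samples at E18.5 and 3 at each other age, which makes 29 samples in 8 groups. The series set out to learn how control of the cell cycle bears on the development of the ovary. A -/- animal is homozygous for the null allele in every cell type of the body, and neither that allele nor the deleted stretch is given in the sources used here.

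Cip/Kip proteins bind complexes of cyclins with cyclin-dependent kinases and block the kinases that carry cells from G1 into S phase. p27 is best known as a brake on division that is removed when the SCF ubiquitin ligase with Skp2 and its cofactor Cks1b marks the protein for destruction, so its RNA and protein levels need not move together. p21 is the classical transcriptional target of p53, and p57 is encoded by an imprinted gene that is read from the maternal chromosome and held silent on the paternal one by the long noncoding RNA Kcnq1ot1. In the mouse ovary p27 is known to restrain the activation of primordial follicles and to act as granulosa cells leave the cell cycle and become luteal cells.

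In GENCODE M21 on GRCm38, Cdkn1a (ENSMUSG00000023067) lies on the plus strand at chr17:29090976-29100727, Cdkn1b (ENSMUSG00000003031) on the plus strand at chr6:134920401-134925513, and Cdkn1c (ENSMUSG00000037664) on the minus strand at chr7:143458339-143461050. Their longest annotated transcripts measure 2080, 4552 and 1901 bases and encode proteins of 159, 197 and 335 residues. Coding sequence makes up 22.9% of the longest transcript of Cdkn1a, 13.0% of that of Cdkn1b and 52.9% of that of Cdkn1c. Levels of different genes are therefore compared below only per kilobase of the longest transcript. Cdkn1c overlaps the antisense gene Gm44732, whose count was at most 3.596% of that of Cdkn1c in a library, and without known strandedness reads of the pair cannot be told apart.

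The stretch before a start site is shown for Cdkn1b and for both listed start sites of Cdkn1a because regulators of these genes, p53 and the FOXO factors, are followed below. Each is the 250 bases before the start as RefSeq gives them on GRCm38.p6, plus strand, 5′ to 3′, at chr6:134920151-134920400 for Cdkn1b, chr17:29090729-29090978 for the upstream start of Cdkn1a and chr17:29093519-29093768 for its downstream start. Capitals mark matches to the CCAAT box, to the GC box with the letters GGGCGG or, in the upstream Cdkn1a stretch, to a full p53 site with 1 mismatch.
Cdkn1b: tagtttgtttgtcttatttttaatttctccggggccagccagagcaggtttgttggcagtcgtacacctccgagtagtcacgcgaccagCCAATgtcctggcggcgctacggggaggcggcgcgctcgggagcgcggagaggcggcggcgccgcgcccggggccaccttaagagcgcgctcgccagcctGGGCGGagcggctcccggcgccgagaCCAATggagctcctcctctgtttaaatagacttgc
Cdkn1a, upstream start: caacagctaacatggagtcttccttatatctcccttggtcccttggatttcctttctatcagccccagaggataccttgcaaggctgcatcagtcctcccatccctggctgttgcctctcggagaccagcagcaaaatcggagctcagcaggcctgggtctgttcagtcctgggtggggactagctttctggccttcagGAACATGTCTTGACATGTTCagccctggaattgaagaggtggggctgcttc
Cdkn1a, downstream start: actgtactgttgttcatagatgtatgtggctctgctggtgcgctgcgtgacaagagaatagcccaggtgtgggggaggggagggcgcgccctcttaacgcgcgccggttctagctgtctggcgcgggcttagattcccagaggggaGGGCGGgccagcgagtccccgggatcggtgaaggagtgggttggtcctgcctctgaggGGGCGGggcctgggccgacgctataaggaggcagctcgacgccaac

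Motifs were searched on both strands from 250 bases before to 50 bases after the start, and the same was done for all 32851 RefSeq promoters of that length. The p53-like site of Cdkn1a lies 51 to 32 bases before the upstream start. A full p53 site with at most 1 mismatch, a search widened after the windows had been seen, occurs in 22 of the promoters (0.067%), and one with no mismatch in 3 (0.00913%). The downstream Cdkn1a window holds 2 GC boxes. The Cdkn1b window holds 1 GC box and 3 CCAAT boxes, the third of them past the start on the opposite strand and outside the printed stretch. GC boxes occur in 35.7% of all promoters and CCAAT boxes in 37.4%. No match to the FOXO core GTAAACA (3.65% of promoters), the E-box CACGTG (7.15%) or the TATA box TATAAA (13.6%) was found in these windows. The matches overlap no other motif searched, and they describe letters, not binding.

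Levels are given as CPM, counts scaled to a common library total, after TMM scaling over all 29 libraries, and a gene is described as changed where edgeR's quasi-likelihood test, adjusted by Benjamini-Hochberg over all genes tested, gave p under 0.05. Fold changes are those of the fitted model for the groups compared and can differ slightly from ratios of the CPM shown. Library totals ran from 14095601 to 48213177 counts, so 3 counts correspond to 0.070 to 0.227 CPM, and the lowest count of any family member in any library was 70. Such floors cover counting error only. One wild-type E13.5 library, replicate 3, stood apart with 18.8% of its counts in haemoglobin genes, while the remaining wild-type E13.5 libraries had 0.697% to 1.04%, and the Cdkn1b-null E13.5 replicate 3 had 573.5 CPM of summed meiotic germ cell markers against 92.9 and 179.5 CPM in its group. Without the first, all 3 members kept their call in the wild-type step from E13.5 to E18.5 and Cdkn1b kept its E13.5 genotype call (edgeR adjusted p = 0.0449); calls that rest on the second are named below. The labels do not say whether replicates came from separate animals or pools, so p-values measure only the spread between these samples.

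Cdkn1b, the targeted gene, was the one member whose RNA rose from E13.5 to E18.5 and again to PND8 in wild type. At E13.5 its 4 wild-type libraries measured 24.1, 19.2, 21.9 and 26.2 CPM. At E18.5 they measured 123, 95.1, 95.9 and 97.4 CPM. The lowest E18.5 library was thus well above the highest at E13.5, and Cdkn1b rose 4.47-fold over this step (log2 fold change 2.16, SE 0.14, edgeR quasi-likelihood, adjusted p = 1.08e-05). In that step 34.0% of all genes tested were called, 16.6% upwards and 17.5% downwards. In such whole-organ samples more cells of a type and more RNA per cell cannot be told apart.

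At PND8 the wild-type libraries held 130.6, 148, 174 and 142 CPM of Cdkn1b. This was again above every E18.5 library, and the rise of 1.36-fold was called (log2 0.44, SE 0.11, adjusted p = 0.00529) in a step in which 74.6% of genes tested were, 37.6% upwards and 36.9% downwards. At 12wk the values were 126, 259.9, 126 and 222 CPM, so that 2 libraries lay near the PND8 level and 2 above it. The change from PND8 was not called (log2 0.40, 95% interval -0.16 to 0.96, adjusted p = 0.259, with 30.5% of genes called, 16.1% upwards and 14.3% downwards). The order of the wild-type means was 12wk, PND8, E18.5 and E13.5, and only 12wk and PND8 overlapped. The highest exceeded the lowest 8.03-fold.

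The spread of Cdkn1b at 12wk was set beside that of luteal markers. All 7 markers on the luteal list (Lhcgr, Ptgfr, Prlr, Star, Cyp11a1, Akr1c18 and Parm1) were above the floor of 3 counts in both groups of that age. Their summed level in wild-type replicates 1 to 4 was 2984, 7795, 1022 and 3701 CPM. Replicates 2 and 4, which had the most Cdkn1b, also had the highest luteal sums. Replicates 1 and 3 had the same Cdkn1b level, 126 CPM, over sums of 2984 and 1022 CPM. The largest part of the sum was Cyp11a1, with a wild-type mean of 2651 CPM. In the Cdkn1b-null replicates 1, 3 and 4 the sums were 1892, 2363 and 4991 CPM, inside the wild-type range. Other marker sums of that age did not overlap between genotypes. Theca and interstitial markers summed to 502 to 971 CPM in wild type and to 1014 to 1357 CPM in the null (5 of 5 found), and smooth muscle markers to 542 to 630 and 687 to 1596 CPM (4 of 4). The theca difference lay mainly in Cyp17a1, at 153 ± 188 and 586 ± 141 CPM. Nr2f2 averaged 116.5 and 148.4 CPM, Insl3 2.00 and 3.36 CPM, Gli1 36.5 and 38.1 CPM, and Ptch1 414 and 384 CPM. Oocyte markers summed to 7.18 to 89.1 and 4.94 to 6.28 CPM (9 of 9, Figla at or under the floor in the null). The part of these tissues in the 12wk levels was not tested.

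Cdkn1b-null ovaries kept a measurable amount of Cdkn1b RNA, and the amount changed with age. The 3 null libraries at E13.5 held 4.30, 4.71 and 4.46 CPM. Those at E18.5 held 9.55, 15.7, 11.6 and 13.8 CPM. These values were far below wild type and far above the floor, and they left 19.7% of the wild-type mean at E13.5 and 12.3% at E18.5. At PND8 the null libraries measured 80.7, 70.1 and 64.3 CPM, and at 12wk 41.4, 56.9 and 55.4 CPM. The remaining share was then 48.3% and 27.9%. In no age did a null library reach the lowest wild-type one. Gene-level counts do not show which part of the gene these reads come from.

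Tested within each age, Cdkn1b was lower in the null by 5.21-fold at E13.5 (log2 fold change -2.38, adjusted p = 0.0114, where it was the one gene called, 0.00606% of those tested) and by 8.31-fold at E18.5 (-3.06, adjusted p = 1.12e-05, 4.99% called). At PND8 it was lower by 2.09-fold (-1.06, adjusted p = 0.0216, 0.349% called). At 12wk the difference of 3.61-fold did not pass adjustment over all genes (-1.85, 95% interval -2.57 to -1.13, unadjusted p = 0.000382, edgeR adjusted p = 0.211, 0.0115% called), although the groups did not overlap. The E13.5 call was lost on leaving out wild-type replicate 1 or 4 or any null replicate (edgeR adjusted p from 0.0831 to 0.207), and the PND8 call on leaving out null replicate 3 or 4 (0.117 and 0.0964). Blocking on replicate number lost the E13.5 and PND8 calls (0.0763 and 0.085). With all 8 groups in one fit the PND8 call was lost (0.106) and the 12wk difference was called (0.000105), as it was by DESeq2 (adjusted p = 7.23e-07). The direction held in every one of these fits.

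The effect on Cdkn1b differed between E18.5 and PND8 by 2.00 on the log2 scale (SE 0.28, edgeR interaction test, adjusted p = 0.00161, with 0.329% of 20359 genes called, 0.0344% upwards and 0.295% downwards). Within the null group itself Cdkn1b rose 2.82-fold from E13.5 to E18.5 (adjusted p = 0.00143, 30.2% of genes called, 15.8% upwards and 14.5% downwards) and 5.46-fold from E18.5 to PND8 (adjusted p = 4.56e-07, 77.4% called, 38.9% upwards and 38.5% downwards). The second rise compares with 1.36-fold in wild type, and this contrast is what the interaction measures. From PND8 to 12wk the null level was 1.31-fold lower, which was not called (log2 -0.39, adjusted p = 0.0725, 29.1% called, 14.8% upwards and 14.3% downwards). The interactions of the earlier and later steps were -0.70 and -0.80 and were not called (edgeR adjusted p = 0.361 and 0.395, with 0.653% and 0.0246% called). Of the genes tested in these, 0.545% and 0.0147% were called upwards and 0.108% and 0.00982% downwards.

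**Figure D1:**
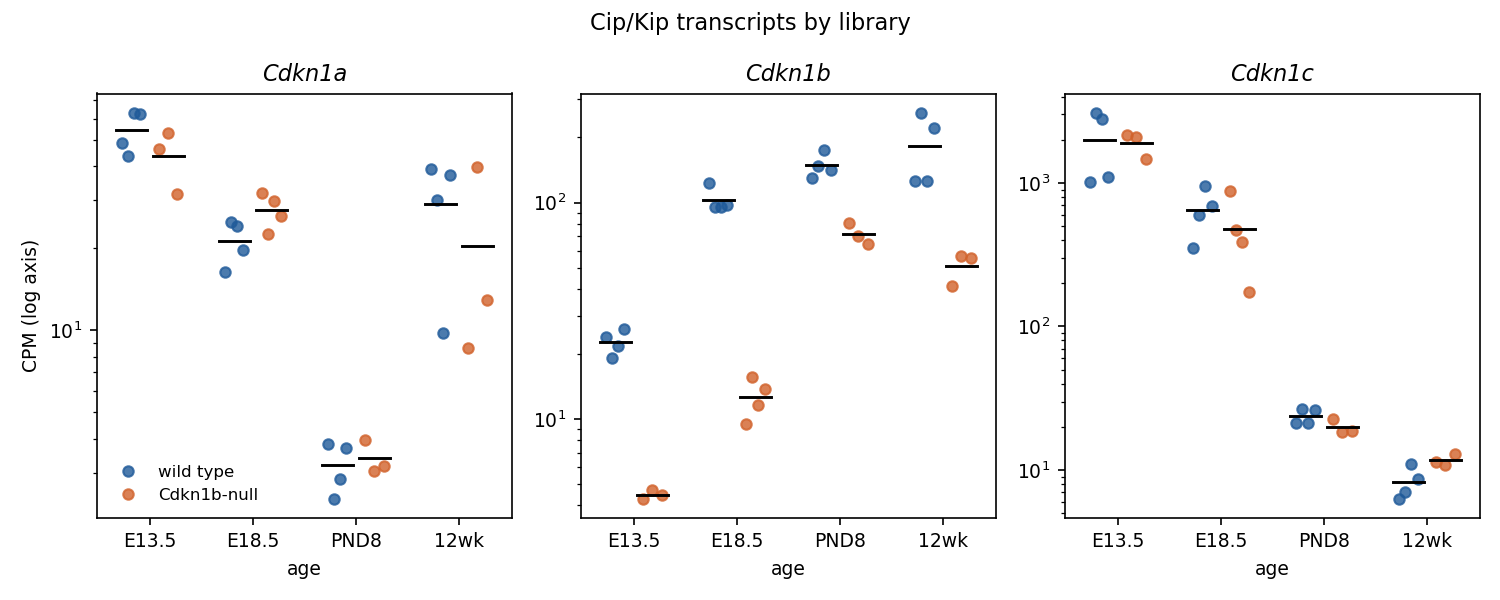
CPM of Cdkn1a, Cdkn1b and Cdkn1c in each of the 29 libraries (points; log axis, scaled separately per gene) by age and genotype, with group means as bars. Cdkn1b is higher at E18.5 than at E13.5 in both genotypes and lower in every null library than in any wild-type library of its age, Cdkn1c falls from a wild-type mean of 1992 to 8.27 CPM, and Cdkn1a dips to about 3 CPM at PND8.

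Cdkn1c, the imprinted member, ran the opposite way to Cdkn1b and covered the widest range of the family. At E13.5 the wild-type libraries measured 1020, 3081, 2772 and 1096 CPM. At E18.5 they measured 351.8, 595, 948 and 691 CPM. The E13.5 libraries fell into 2 low and 2 high values, and even the low ones exceeded every E18.5 library. Cdkn1c fell 3.12-fold over this step (log2 -1.64, SE 0.42, edgeR adjusted p = 0.0140). Without the haemoglobin-rich replicate 3 the fall remained called, as it did in every fit that left out 1 replicate (log2 from -1.88 to -1.37). Without the filter on low counts the call was lost (log2 -1.63, adjusted p = 0.0699).

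After birth Cdkn1c stood at much lower levels. Wild-type libraries held 21.4, 26.8, 21.3 and 26.2 CPM at PND8 and 6.33, 7.05, 11.0 and 8.71 CPM at 12wk. The groups were separate at each step, and the falls were 28.8-fold from E18.5 to PND8 (log2 -4.85, adjusted p = 2.88e-07) and 2.72-fold from PND8 to 12wk (log2 -1.44, adjusted p = 0.000779). Between the E13.5 and 12wk wild-type means lay a 240.8-fold difference. No other member spanned as much, Cdkn1a covering 17.0-fold and wild-type Cdkn1b 8.03-fold.

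Loss of Cdkn1b left Cdkn1c without a called change at any age. The E13.5 null libraries measured 2142, 2079 and 1457 CPM and lay between the low and the high wild-type values (log2 fold change -0.12, 95% interval -1.09 to 0.85, edgeR adjusted p = 0.994). At E18.5 the null libraries spread over 878, 472, 385 and 174 CPM, reaching below but not above wild type (-0.47, -1.65 to 0.71, adjusted p = 0.627). At PND8 they held 22.9, 18.4 and 18.8 CPM and overlapped wild type in 1 library. That difference had an unadjusted p of 0.0478 and an edgeR adjusted p of 0.327 (-0.27, -0.53 to -0.0032).

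At 12wk Cdkn1c stood at 11.3, 10.9 and 13.0 CPM in the null, of which only the 10.9 CPM library lay under the highest wild-type value of 11.0 CPM. The fitted difference was 1.42-fold upwards (log2 0.50, 95% interval -0.01 to 1.02, edgeR unadjusted p = 0.0538, adjusted p = 0.528). The E13.5 direction turned when wild-type replicate 2 or 3 or null replicate 4 was left out (log2 0.15, 0.14 and 0.04). Within the null group Cdkn1c fell at each step, by 3.96-fold, 24.6-fold and 1.59-fold (edgeR adjusted p = 0.0248, 0.000462 and 0.0160). The first of these falls was no longer called without null replicate 1 or 3 of E13.5 or replicate 2 or 3 of E18.5 (adjusted p 0.0624 to 0.0864), and the last without PND8 replicate 1 (0.0563).

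The transcript of Cdkn1c is rich in G and C (59.4%, above 94.7% of the 13969 genes measured for this). Its deviations from the group means ran beside each library's slope of expression on GC content, with Pearson's r of 0.47 over 29 libraries and 0.49 over the 15 fetal ones. These points share libraries with the levels themselves, and the part of GC content in the fetal spread of Cdkn1c was not tested.

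Cdkn1a, the p53-responsive member, was moderate in the embryo, lowest at PND8 and moderate again in the adult. Wild-type libraries measured 48.6, 43.7, 63.0 and 62.2 CPM at E13.5 and 16.4, 25.1, 24.1 and 19.7 CPM at E18.5. They measured 3.83, 2.41, 2.85 and 3.69 CPM at PND8. Each group lay wholly below the one before it, with falls of 2.57-fold (log2 -1.36, edgeR adjusted p = 0.000455) and 7.10-fold (log2 -2.83, adjusted p = 1.60e-06). At 12wk the values were 39.3, 30.2, 9.80 and 37.2 CPM, all above PND8, and Cdkn1a had risen 9.67-fold (log2 3.27, SE 0.42, adjusted p = 0.000896).

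Cdkn1b-null ovaries held 46.4, 53 and 31.7 CPM of Cdkn1a at E13.5. At E18.5 they held 31.8, 22.7, 29.8 and 26.3 CPM, 3 of the 4 above the highest wild-type library. The E13.5 difference was -0.35 (95% interval -0.85 to 0.14, edgeR adjusted p = 0.989) and the E18.5 difference 0.34 (-0.02 to 0.71, adjusted p = 0.253). At PND8 the null libraries measured 3.94, 3.04 and 3.17 CPM, inside or just past the wild-type range (0.07, -0.47 to 0.61, adjusted p = 0.925). At 12wk they spread over 8.61, 39.9 and 12.9 CPM, as wide as wild type (-0.55, -1.95 to 0.85, adjusted p = 0.818). No genotype difference of Cdkn1a was called. The 95% interval of the fold ran from 0.985 to 1.64 at E18.5 and from 0.259 to 1.81 at 12wk.

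The course of Cdkn1a with age was called at all 3 steps in the null as well, with falls of 1.58-fold and 8.43-fold and a rise of 6.31-fold (edgeR adjusted p = 0.0261, 7.65e-08 and 0.0157). The first fall was lost without null replicate 1 or 3 of E13.5 or replicate 2 or 4 of E18.5 (adjusted p up to 0.0843). The rise to 12wk was lost without any 1 of the 3 PND8 replicates (0.0559 to 0.0730). Leaving out the high 12wk replicate 3 kept that call and lowered the log2 change from 2.66 to 1.80. Over all ages the genotype effect on Cdkn1a or Cdkn1c was not called to differ between ages (edgeR interaction over 3 coefficients, adjusted p = 0.711 and 0.720), whereas that on Cdkn1b was (adjusted p = 0.00427, with 164 genes or 0.805% called).

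**Figure D2:**
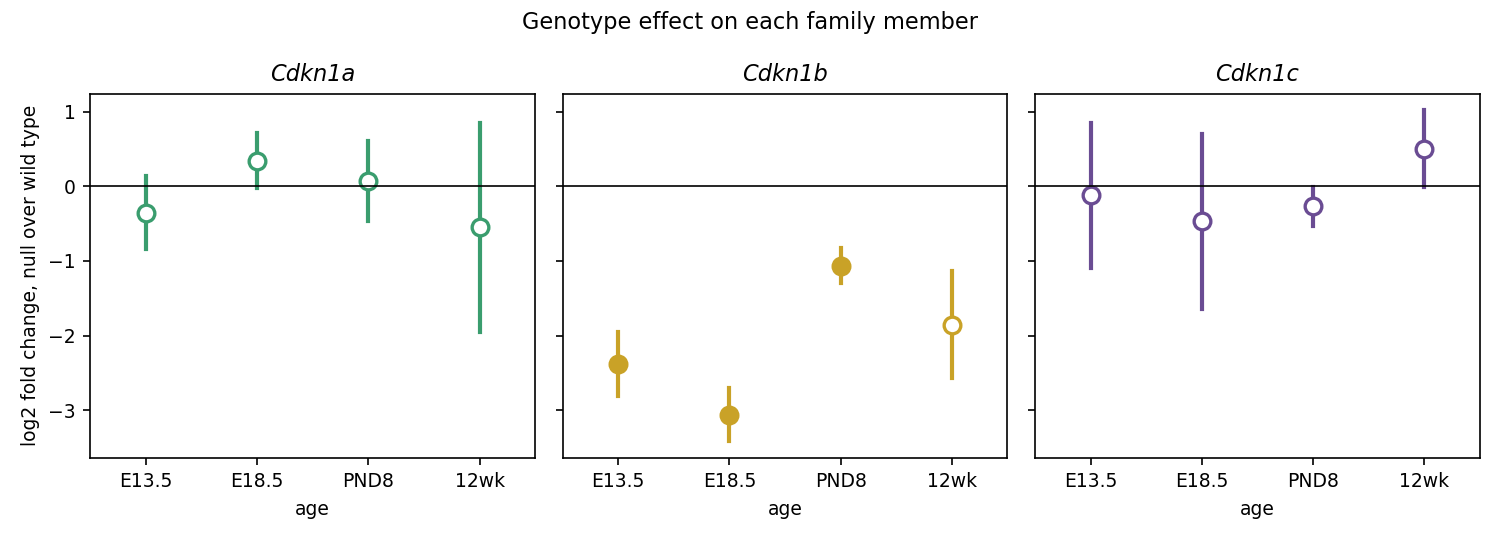
Fitted log2 fold change of each family member in Cdkn1b-null over wild-type ovaries at each age, with 95% intervals as lines. Filled points passed the edgeR threshold after adjustment over all genes, and these are Cdkn1b at E13.5, E18.5 and PND8; every interval of Cdkn1a and all but 1 of Cdkn1c cross 0.

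The make-up of the family turned over between fetal and postnatal life. Per kilobase, Cdkn1c made up 96.3% ± 2.1 (SD, n = 4) of the wild-type family total at E13.5 and 90.2% ± 4.3 at E18.5. It then held 27.0% ± 3.5 at PND8 and 8.31% ± 4.65 at 12wk. Each of these 3 falls separated the groups completely (two-sided exact permutation tests, p = 0.0286, the smallest that 4 against 4 allows, Benjamini-Hochberg adjusted p = 0.0429 over 12 tests). Cdkn1b supplied 0.613% ± 0.376, 6.94% ± 3.69, 69.7% ± 3.8 and 68.0% ± 8.9 of the total at the same ages. Its first 2 rises separated the groups in the same way, and the last step did not differ (exact permutation adjusted p = 0.857).

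Cdkn1a stayed near 3% of the family until PND8, at 3.08% ± 1.71, 2.91% ± 0.73 and 3.33% ± 0.93 (n = 4 each). At 12wk it made up 23.7% ± 10.8, above every PND8 library (exact permutation p = 0.0286, adjusted p = 0.0429). The wild-type family total itself was 1079 ± 570, 373 ± 129, 46.7 ± 3.8 and 58.6 ± 17.7 CPM per kilobase. It fell at the first 2 steps (exact permutation adjusted p = 0.0429 each) and was not shown to differ at the last (adjusted p = 0.457). How large a share step is depends on the division by length, without which the Cdkn1a step to 12wk was 11.6 rather than 20.3 percentage points and the first Cdkn1b step 13.4 rather than 6.33.

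In Cdkn1b-null ovaries Cdkn1c remained the bulk of the fetal family, with 97.9% ± 0.2 (n = 3) at E13.5 and 92.2% ± 4.8 (n = 4) at E18.5. At PND8 the residual Cdkn1b RNA still made up 56.4% ± 1.4 (n = 3), Cdkn1c 37.7% ± 1.2 and Cdkn1a 5.83% ± 0.27. At 12wk the shares were 43.0% ± 8.3 for Cdkn1b, 24.5% ± 8.2 for Cdkn1c and 32.5% ± 16.3 for Cdkn1a. These null shares are not tested against wild type, since the loss of Cdkn1b raises the other shares by itself. They also divide the residual Cdkn1b RNA by the full transcript length, although the stretch deleted in the null is not known here.

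**Figure D3:**
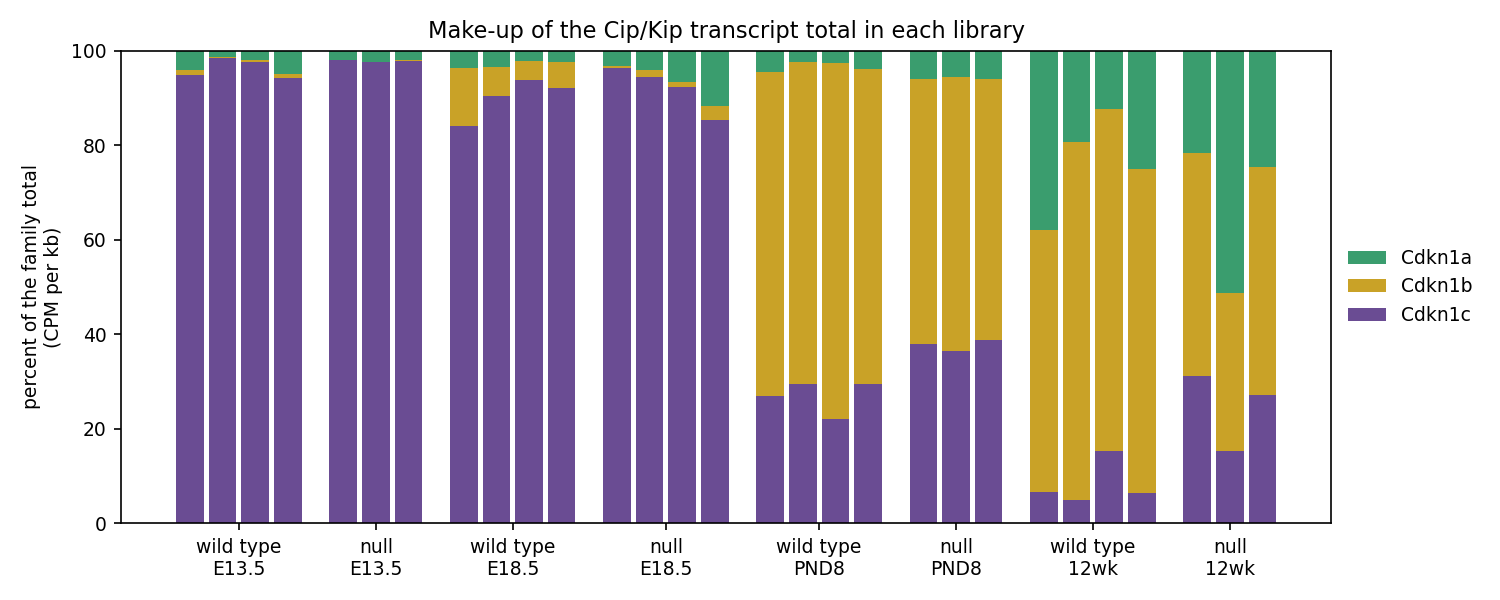
Stacked bars give, for each library, the percent of the family total (CPM per kilobase of the longest transcript) due to Cdkn1c, Cdkn1b and Cdkn1a, ordered by age and genotype. Cdkn1c fills at least 84.1% of every fetal bar, Cdkn1b is the largest part of all PND8 bars and all wild-type 12wk bars, and 1 null library at 12wk is led by Cdkn1a.

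Whether the relatives of p27 were raised in its absence was asked of the summed level of Cdkn1a and Cdkn1c per kilobase. From the youngest age to the oldest, the null held 4.03, 19.8, 16.9 and 29.0 CPM per kilobase less Cdkn1b RNA than wild type. These amounts count the residual RNA of the null allele as Cdkn1b, over the full transcript length. Over the same ages the null minus wild-type difference in the sum of the other members was -57.6, -85.97, -1.95 and -2.33 CPM per kilobase. The mean sum was thus not higher in the null at any age. In wild type its SD was 571 at E13.5 and 131 at E18.5, so a rise as small as the Cdkn1b lost could not be seen in the fetus. Taken singly, Cdkn1a was higher in the null by 3.05 at E18.5 and 0.092 at PND8, and Cdkn1c by 1.84 at 12wk. The remaining differences of these members were negative. On the log2 scale, averaged over libraries, the sum differed by 0.07, -0.52, -0.22 and -0.24 (two-sided exact permutation tests, unadjusted p = 1, 0.400, 0.171 and 0.686, adjusted p of at least 0.411). The groups overlapped at every age. At E13.5 the mean and the log2 mean differ in sign, and the log2 value changed sign on leaving out wild-type replicate 1 or 4 or null replicate 1 or 3 (log2 -0.19 to 0.33 over all such fits).

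The mean of the whole family total, the null's own Cdkn1b RNA included, was lower in the null after birth. Cdkn1b made up 69.7% and 68.0% of the wild-type total at PND8 and 12wk, so its loss lowers this total by itself. At PND8 the null libraries averaged 27.9 ± 3.3 (n = 3) against 46.7 ± 3.8 CPM per kilobase (n = 4), a ratio of 0.596. At 12wk they averaged 27.3 ± 9.3 against 58.6 ± 17.7, a ratio of 0.465. Neither pair of groups overlapped, but groups of 3 and 4 cannot reach an exact permutation p below 0.0571, which is the value both gave (adjusted p = 0.343). In the fetus the total was carried by Cdkn1c and overlapped between genotypes, at 1018 ± 204 against 1079 ± 570 at E13.5 and 267 ± 156 against 373 ± 129 at E18.5 (exact permutation p = 1 and 0.286). The ratio of Cdkn1c to Cdkn1a was 0.479 ± 0.500 in wild type and 0.949 ± 0.587 in the null at 12wk, which the spread covers (exact permutation p = 0.171, adjusted p = 0.411).

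The kinases and cyclins that Cip/Kip proteins bind were followed as a list of 12 genes, 11 of which passed the filter on low counts. At E18.5, 6 of them were higher in the null and 1 lower (edgeR, with 3.32% of all genes called higher and 1.67% lower), and the list's median log2 fold change was 0.56 beside -0.04 for all genes. Cyclin E1, which opens S phase with Cdk2, measured 17.0 ± 2.4 CPM in wild type and 34.8 ± 9.5 CPM in the null (Ccne1, log2 1.01, adjusted p = 0.0180). Ccne2 rose by 0.66 (adjusted p = 0.0410), Cdk2 by 0.56 (0.0295), Ccna2 by 1.11 (0.0182), Ccnb1 by 1.42 (0.00227) and the mitotic kinase Cdk1 by 0.99 (0.00271). The D cyclins, which answer growth signals, went the other way or were not called. Ccnd2 fell from 849.5 ± 87.1 to 489 ± 37 CPM (n = 4 each, log2 -0.83, adjusted p = 0.00227), Ccnd1 differed by -0.52 (0.201) and Ccnd3 by -0.33 (0.101). Their kinases Cdk4 and Cdk6 differed by 0.13 (0.485) and -0.43 (0.152).

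The number of partners higher at E18.5 fell to 2 when wild-type replicate 4 or null replicate 3 or 4 was left out and to 4 without wild-type replicate 3 or null replicate 1; 1 was lower in each fit. With the replicate number as a block, 6 were higher and 2 lower. At PND8, where 0.0450% of all genes were called higher and 0.304% lower, no partner was higher and 2 were lower, Ccnd1 (40.8 ± 5.6 to 22.9 ± 1.0 CPM, log2 -0.85, edgeR adjusted p = 0.0371) and Ccnd3 (91.7 ± 9.5 to 50.05 ± 11.97 CPM, -0.89, 0.0473). Neither was called without wild-type replicate 1, 2 or 4 or null replicate 3 or 4, or under the block, and 1 partner was lower without wild-type replicate 3. No partner was called at E13.5 or 12wk, where the values for Ccnd2 were -0.33 and -1.02 (adjusted p = 0.989 and 0.397) and the list medians -0.08 and 0.10.

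The ubiquitin ligase genes that destroy p27, p21 and p57 formed a list of 11, all tested. At E18.5, 3 were higher in the null and none lower, beside 3.32% and 1.67% of all genes, with a list median of 0.22 and an all-gene median of -0.04. Skp2, the subunit that recognises p27, measured 39.0 ± 8.7 CPM in wild type and 61.8 ± 8.0 CPM in the null (n = 4 each, log2 0.64, edgeR adjusted p = 0.0411). Its cofactor Cks1b measured 81.2 ± 10.7 and 144.7 ± 9.5 CPM (log2 0.80, adjusted p = 0.00321). Dtl, the receptor of the ligase that removes p21 during S phase, rose from 47.4 ± 15.7 to 107 ± 8 CPM (log2 1.15, adjusted p = 0.00940). With any of 5 libraries left out in turn (wild-type replicate 3 or 4, null replicate 1, 3 or 4), 2 were called. At E13.5, PND8 and 12wk no gene of the list was called, and Skp2 differed by -0.02, 0.01 and 0.16.

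Beside these changes, 13 of 15 proliferation genes were higher in the E18.5 null, with a median log2 fold change of 1.26, beside 3.32% of all genes called higher and an all-gene median of -0.04. Cdc20, which starts anaphase, rose by 1.58 (edgeR adjusted p = 4.56e-05), the replication helicase gene Mcm3 by 1.26 (0.000654), and the licensing factor Cdt1 by 1.496 (0.000729). With any 1 library left out, 11 to 13 were called. No proliferation gene was called at the other ages, with medians of 0.01, 0.15 and 0.21 at E13.5, PND8 and 12wk. Summed granulosa markers at E18.5 ran from 128 to 201 CPM in wild type and from 201 to 369 CPM in the null (7 of 7 genes found, Fshr at or under the floor in the null). The difference in that sum lay mainly in Inha, at 100.4 ± 10.9 and 226 ± 63 CPM. Cyp19a1 and Hsd17b1 were also higher in the null without overlap, at means of 0.457 and 2.68 CPM and of 1.19 and 4.98 CPM. Foxl2 averaged 46.9 and 38.6 CPM, Inhbb 22.2 and 21.0 CPM and Amh 0.996 and 0.919 CPM. Theca and interstitial markers summed to 126 to 184 CPM in wild type and to 100.4 to 120.3 CPM in the null, without overlap (5 of 5 found, Insl3 at or under the floor in the null). That difference lay mainly in Nr2f2, at 128 ± 20 and 91.3 ± 9.4 CPM. Ptch1 averaged 20.4 and 17.3 CPM, Gli1 3.77 and 1.46 CPM, and Cyp17a1 2.55 and 3.03 CPM. Meiotic germ cell markers ran from 595 to 1331 and from 440 to 905 CPM (5 of 5). Their part in the E18.5 differences was not tested. In wild type, 13 of the 15 proliferation genes fell between E13.5 and E18.5 (17.5% of all genes fell) and 13 rose between E18.5 and PND8 (37.6% rose), both steps at which Cdkn1b rose. From PND8 to 12wk 14 fell (14.3% of all genes).

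**Figure D4:**
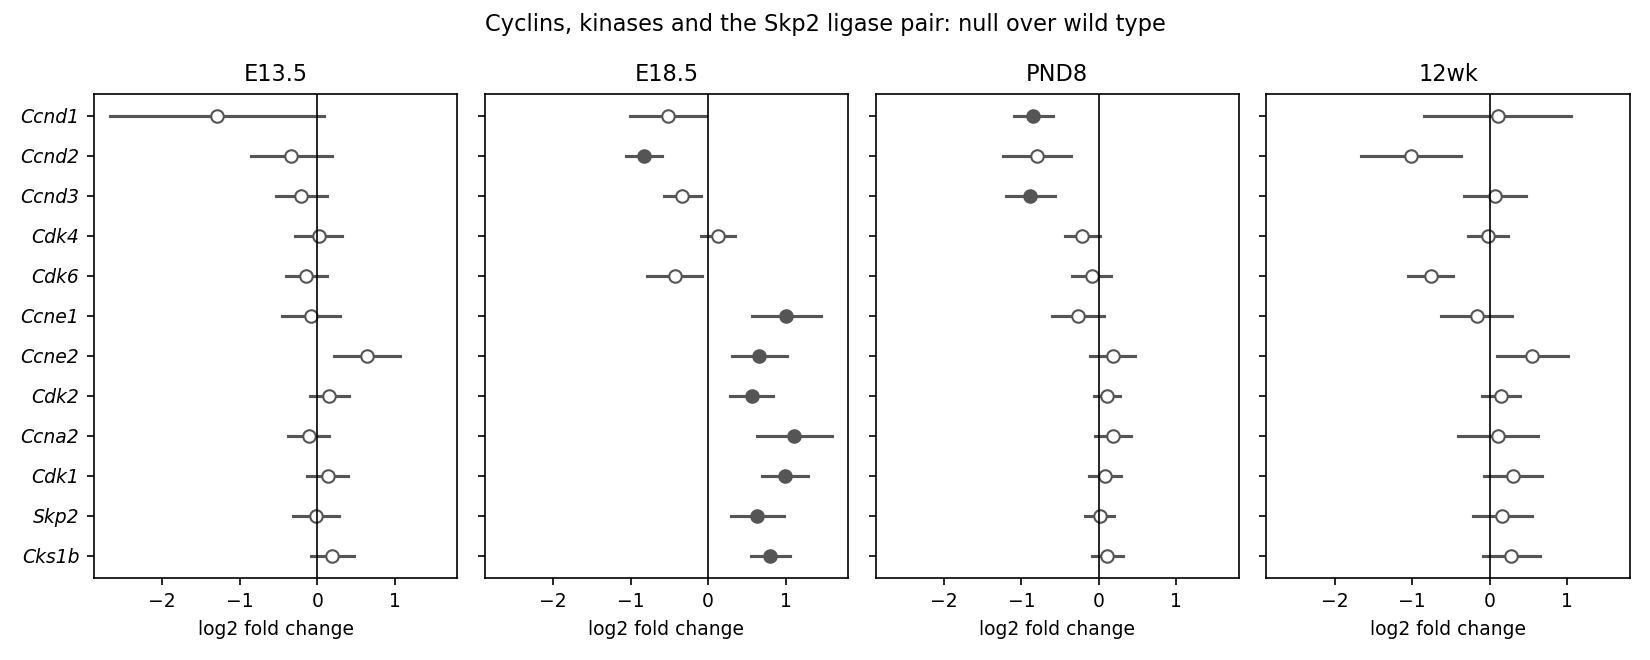
Log2 fold change in Cdkn1b-null over wild-type ovaries, with 95% intervals, for 10 cyclin and kinase genes and for Skp2 and Cks1b, 1 panel per age. Filled points passed the edgeR threshold; at E18.5 these are Ccnd2 below 0 and Ccne1, Ccne2, Cdk2, Ccna2, Cdk1, Skp2 and Cks1b above it, at PND8 Ccnd1 and Ccnd3 below it.

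Of 11 transcription factors known to act on the family's genes, 10 were tested at E18.5 and 1 was called, beside 4.99% of all genes (list median 0.05). This was Trp53, which encodes p53 (63.4 ± 5.8 CPM in wild type and 88.0 ± 7.4 in the null, log2 0.44, edgeR adjusted p = 0.0396). No gene of the list was called when any 1 library except wild-type replicate 2 was left out. Foxo1 and Foxo3, which encode activators of Cdkn1b, differed by -0.47 and -0.30 at E18.5 (adjusted p = 0.360 and 0.156), and neither was called at another age. In wild type 8 of the 11 factors rose and 1 fell from E18.5 to PND8, beside 37.6% and 36.9% of all genes. Foxo1 averaged 17.0 CPM at E13.5 and was not called as changed to E18.5 (log2 0.13, edgeR adjusted p = 0.813). It then rose from 18.8 ± 7.8 to 244.7 ± 41.5 CPM (log2 3.602, adjusted p = 2.45e-06), and Foxo3 rose by 0.82 and 0.61 over these steps (0.000875 and 0.000486). Trp53 fell by 0.98 and then rose by 1.51 (edgeR adjusted p = 0.000282 and 6.62e-07). The part of these factors in the levels of the family members was not tested.

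Of 19 p53 target genes other than Cdkn1a, none was higher in the E18.5 null and 2 were lower, beside 3.32% and 1.67% of all genes. These were the cell death gene Trp53inp1 (log2 -0.51, edgeR adjusted p = 0.0338) and Phlda3 (-0.41, 0.0456). The median over the list was -0.16. With the replicate number as a block 5 were lower, and without wild-type replicate 3 or 4 or null replicate 2, 3 or 4 none was called. Mdm2, the p53 ligase and target, differed by 0.09 (0.613). In wild type, 10 of the 19 fell and 4 rose from E18.5 to PND8, beside 36.9% and 37.6% of all genes. From PND8 to 12wk 8 rose and none fell, beside 16.1% and 14.3%. Mdm2 fell by 0.49 and rose by 0.31 over these steps (adjusted p = 0.000811 and 0.0262).

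Cdkn1c lies in an imprinted cluster on distal chromosome 7, and 9 of its neighbours were listed. Kcnq1ot1, the noncoding RNA of the cluster, ran from 16.6 to 350.9 CPM in wild type and from 11.2 to 27.3 CPM in the null at E13.5, with overlap, and no fold is given for that spread. At E18.5 it averaged 29.5 ± 11.6 and 13.6 ± 3.8 CPM (log2 -1.14, edgeR adjusted p = 0.0701). Among the 8 neighbours tested at E18.5 only Nap1l4, a histone chaperone gene, was called (0.38, 0.0293). From E18.5 to PND8 in wild type 7 of the 8 tested fell and 1 rose while Cdkn1c fell, and 9 of 11 other imprinted growth genes fell, among 36.9% of all genes. H19, Igf2 and Dlk1 fell by 3.43, 3.22 and 2.96 on the log2 scale (adjusted p = 1.57e-07, 6.01e-07 and 5.71e-07), and Plagl1 rose by 2.12 (2.42e-06). Peg3 was the 1 gene of the second list called between genotypes at E18.5, at 823 ± 160 CPM in wild type and 1252 ± 80 in the null (n = 4 each, log2 0.58, edgeR adjusted p = 0.0349). No neighbour was called without wild-type replicate 3 or 4 or any null replicate. No gene of the second list was called without wild-type replicate 1 or 3 or any null replicate, and 1 gene of each list was also lower once replicate number entered as a block.

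The INK4 inhibitors, which bind Cdk4 and Cdk6 alone, form the other family of brakes. None of the 4 was called between genotypes at any age. Cdkn2c (p18) measured 35.8 ± 4.5 CPM in wild type and 51.8 ± 9.2 in the null at PND8 and 32.1 ± 6.8 and 49.1 ± 3.6 at 12wk (log2 fold change 0.52 and 0.61, edgeR adjusted p = 0.112 and 0.397). In wild type Cdkn2c rose by 2.52 on the log2 scale from E18.5 to PND8 and Cdkn2d fell by 1.97 (edgeR adjusted p = 1.07e-06 and 7.42e-06). Cdkn2b rose from 0.353 ± 0.069 to 17.2 ± 12.5 CPM between PND8 and 12wk (log2 5.68, adjusted p = 0.000425), a step at which Cdkn1a also rose. At 12wk the null held 3.11 ± 2.97 CPM of Cdkn2b (n = 3, log2 fold change -2.49, edgeR adjusted p = 0.438).

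The genes whose log2 levels were most like each member over the 16 wild-type samples are given as a description, since age and library are shared by all points. For Cdkn1b these were Fut8 (Pearson's r 0.97), Echdc3, Abca5, Akr1c14 and Rabggtb (down to 0.96), for Cdkn1c Dclk1 (0.99), Uchl3, Rassf10, Sde2 and Ptges3 (0.98), and for Cdkn1a Ak1 (0.96), Sfrp2, C3ar1, Nfam1 and C5ar1 (0.92). Among the members themselves r was -0.83 for Cdkn1b with Cdkn1c, -0.57 for Cdkn1a with Cdkn1b and 0.51 for Cdkn1a with Cdkn1c. Fut8 followed Cdkn1b in wild type but not into the null, where it averaged 126 CPM at E18.5 against 102 in wild type. Once group means were removed, the most alike genes included Aif1l (r 0.93), Dhcr7, Fut8 and Acsl4 for Cdkn1b over the 16 wild-type samples. Over all 29 samples they were Bag1 (0.90), Habp4, Bri3, Ino80b and Fbxo31 for Cdkn1c and Sfrp2 (0.83), Tnfrsf12a, Bves, Fam196b and Plekhg4 for Cdkn1a. Acsl4 averaged 25.2 CPM in wild type at PND8 and 166 CPM at 12wk.

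**Figure D5:**
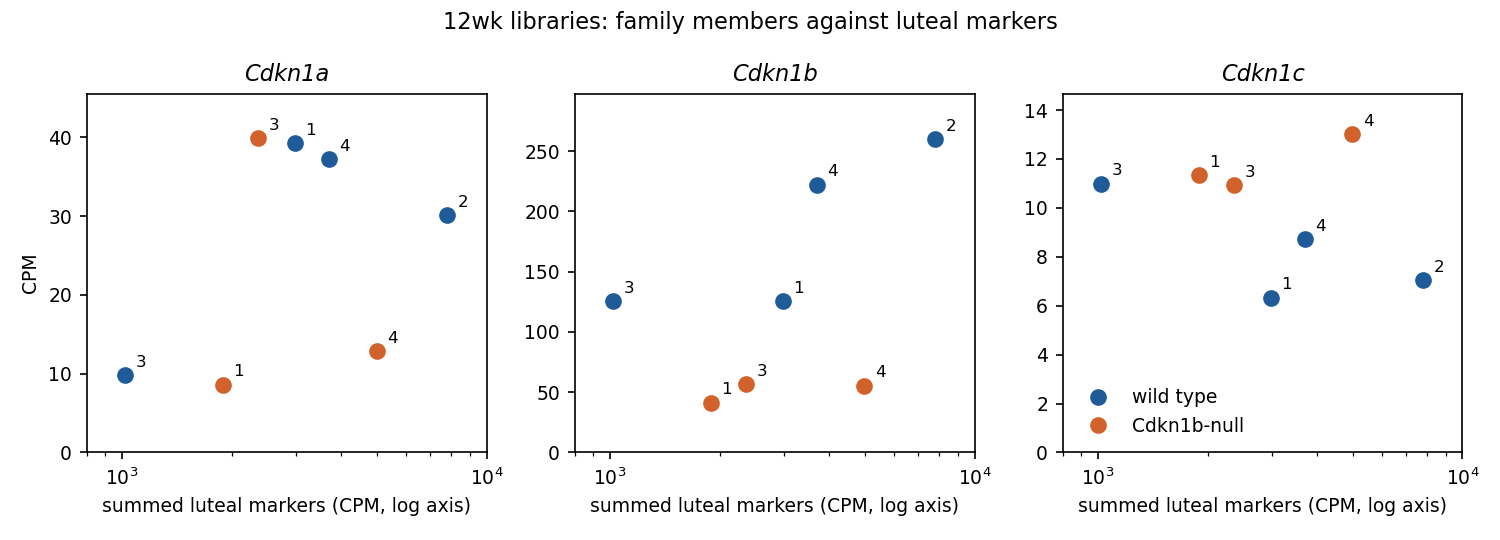
CPM of each family member in the 7 libraries of 12wk (points, labelled with the replicate number) against the summed CPM of 7 luteal markers (log axis). In wild type Cdkn1b is highest in replicates 2 and 4, which have the highest sums of 7795 and 3701 CPM, while the 3 null libraries stay between 41.4 and 56.9 CPM over sums of 1892 to 4991 CPM.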

How the data were processed

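Gene-level expected counts were deposited as 1 table of 29 whole-ovary libraries, made with RSEM 1.3.0, STAR 2.5.2 and Trim Galore per the submitters' processing notes. The genome build, annotation release and strandedness are not given in the sources used here, and the header points to a folder that combines 2 projects. Of 51912 gene IDs, 51633 matched a symbol in the reference table and 15157 had no count; 31.4% of values above 0 were not whole, since RSEM splits reads between genes (no value of Cdkn1a or Cdkn1b, and that of Cdkn1c in 14 libraries). Counts were rounded. The main test was edgeR 4.0.16 (R 4.3.3), quasi-likelihood with TMM scaling, genes kept by filterByExpr (minimum count 10, total 15), fitted per comparison on its own groups, or on all 8 groups for interactions, with Benjamini-Hochberg adjustment over all genes tested and a threshold of 0.05. Family sums, shares and ratios used CPM per kilobase of the longest GENCODE M21 transcript and two-sided exact permutation tests (scipy 1.17.1), adjusted over 12 tests between genotypes and 12 between ages. Groups and replicate numbers come from the labels. All pairs of replicates differed beyond sampling noise.

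Same-numbered samples deviated together at E18.5 between genotypes (4 pairs, lowest correlation 0.12) and in the null between E13.5 and E18.5 (3 pairs, lowest 0.14), by the data and not by a label; as a block the number changed no call of a family member there. Alternatives were DESeq2 1.42.0, RLE size factors, no filter on low counts, all 8 groups in one fit, the replicate block, each replicate left out, and other transcript lengths. Genes named are the 3 members, fixed regulators, cyclins and kinases, up to 4 called genes of each list per genotype comparison by smallest p, and the 5 genes most alike each member by Pearson correlation (mean CPM of at least 2), of which 1 is not reported here. Cdkn2b to Cdkn2d, H19, Igf2, Dlk1 and Plagl1 lie outside this rule and were named after their values were seen. The members and lists were chosen with earlier results of these data known. The procedure was tested on simulated data.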

Additional observations from a re-analysis of the deposited data

Results flagged for a closer look

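In wild-type ovaries at E18.5, Cdkn1b measured 123.4 CPM in replicate 1 against 95.1 to 97.4 CPM in the other 3 libraries, a gap that took up 0.917 of the group's range and passed Dixon's 95% critical value for 4 samples. This was the one such case in 35 tests of groups, and chance alone gives about 1 in 20. Leaving that library out kept the E18.5 call of Cdkn1b.

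The genotype effect on Cdkn1b was 1.996 log2 units smaller in size at PND8 than at E18.5, by the interaction test given above (edgeR adjusted p = 0.00161). It was called in each of 15 fits that left out 1 library.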

How the results depend on the processing

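Of the 3 members' tests, 173 values under other settings and 325 with 1 replicate left out kept their direction and their side of the threshold. The exceptions follow, as log2 changes with edgeR adjusted p unless another tool is named; their cause was not tested. With the replicate number as a block, Cdkn1b between genotypes was -2.459 at E13.5 (0.0763) and -1.069 at PND8 (0.085), both no longer called. Cdkn1c at E13.5 turned to 0.3144 and Cdkn1a at PND8 to -0.04647. Deviations of same-numbered samples correlated between genotypes with a mean of 0.066 at E13.5 (lowest 0.014). The mean was 0.161 at PND8 (lowest -0.0015), beside 0.180 at E18.5 (lowest 0.12). With all 8 groups in one fit, Cdkn1b was -1.049 at PND8 (0.106, call lost) and -1.85 at 12wk (0.000105, call gained), and in the null Cdkn1a from E13.5 to E18.5 was -0.6815 (0.19) and Cdkn1c from PND8 to 12wk -0.761 (0.224), both lost. DESeq2 gave -1.849 for Cdkn1b at 12wk (7.23e-07, gained). Without a filter on low counts, Cdkn1c from E13.5 to E18.5 was -1.632 in wild type (0.0699) and -1.974 in the null (0.0854), and in the null from PND8 to 12wk Cdkn1a was 2.646 (0.062) and Cdkn1b -0.4029 (0.0456); the first 3 calls were lost and the last gained. Without division by length the Cdkn1a share from E18.5 to PND8 in wild type changed by -1.031 percentage points, and with merged exon length the Cdkn1b share from PND8 to 12wk by 3.734, each turning a direction that was not called.

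With 1 replicate left out, the genotype effect ran from -2.46 to -2.312 for Cdkn1b and from -0.3444 to 0.1497 for Cdkn1c at E13.5, and from -1.149 to -0.9861 for Cdkn1b and from -0.05218 to 0.1861 for Cdkn1a at PND8. In the null, the step from E13.5 to E18.5 ran from -0.8471 to -0.5041 for Cdkn1a and from -2.457 to -1.708 for Cdkn1c, and that from PND8 to 12wk from 1.799 to 3.016 and from -0.7734 to -0.5818. The Cdkn1c interaction of E18.5 with PND8 ran from -0.07256 to 0.6786. The log2 genotype effect at E13.5 ran from -0.1925 to 0.3214 for the family total and from -0.1866 to 0.3306 for the sum of Cdkn1a and Cdkn1c, and for that sum at 12wk from -0.6151 to 0.03615. In wild type the Cdkn1a share from E13.5 to E18.5 changed by -0.7699 to 0.433 percentage points and the Cdkn1b share from PND8 to 12wk by -4.221 to 2.577.

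The number of genes called moved by more than 1.5 times. At E13.5 it was 1 and became 71 with DESeq2, 59 with all groups and 0 to 1 with a replicate left out. At E18.5 it was 814 and became 1676 with DESeq2 and 246 to 1372 with a replicate left out. At PND8 it was 62 and became 258 without the filter, 741 with DESeq2, 0 with all groups, 8 with the block and 0 to 147 with a replicate left out. At 12wk it was 2 and became 12, 298, 68, 10 and 0 to 3 in the same order. For the null step from PND8 to 12wk it was 5071 and at least 2642 with a replicate left out. For the 3 interactions, in order of age, it was 133, 67 and 5 and became 412, 175 and 133 with DESeq2; the block gave 5 for the second and 11 for the third, and leaving out a replicate gave 42 to 206, 2 to 112 and 4 to 26.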
